A study of Bos taurus with 6 samples.

Results

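Genes that copy, package and transcribe mitochondrial DNA (mtDNA) were examined in bovine blastocysts. The set was fixed by name as TFAM, TFB1M, TFB2M, POLRMT, POLG, POLG2, TWNK, SSBP1, MPV17 and TOP1MT, and 9 of the 10 symbols were found among the 36075 rows of the expression table. TOP1MT, the mitochondrial topoisomerase, was not analysed here. The control blastocysts came from slaughterhouse oocytes matured in vitro for 22 h without melatonin (MT), and the MT-treated blastocysts came from oocytes matured for the same time with 1e-07 mol/L MT. Oocytes of both groups were then fertilized and cultured in vitro. Each group had 3 libraries, and each library was made from 3 pooled blastocysts, so cell types of the embryo were mixed and a lower share of a cell type cannot be told apart from less RNA per cell. Values are TPM, a unit that corrects reads for gene length and library total, so levels can be compared between genes within a library. The deposited values did not add up to the same total in both groups. Totals lay between 936783 and 937698 in control and between 912686 and 913707 in MT-treated libraries, a ratio of the means of 0.974. Values were used as deposited unless a scaling is named.

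The mitochondrial genome is replicated by its own machinery, which is encoded in the nucleus. POLG is the catalytic subunit of the mitochondrial DNA polymerase and POLG2 its accessory subunit, TWNK is the helicase that opens the duplex, and SSBP1 coats the exposed single strand. POLRMT is the mitochondrial RNA polymerase, TFAM bends the promoter and packages the whole genome, and TFB2M melts the promoter so that transcription can start, whereas its paralogue TFB1M mainly methylates the ribosomal RNA of the small mitochondrial subunit. MPV17 is an inner membrane protein whose loss depletes mtDNA. In the early mammalian embryo mtDNA is hardly replicated before the blastocyst stage, and replication is known to resume first in the trophectoderm of several species.

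The libraries of the 2 groups differed in how many genes were listed above 0, from 8854 to 8953 in control and from 14372 to 14408 in MT-treated blastocysts. TPM does not show whether the libraries of both groups were prepared, sequenced and quantified alike, and a difference in these steps cannot be told apart from an effect of MT in any value below. Trophectoderm markers were abundant in both groups, with a summed level between 11375 and 11717 TPM in control and between 10506 and 10863 TPM in MT-treated libraries, of which KRT8 and KRT18 made up the greater part. In the limma test described below, 6 of the 8 markers in this list were called higher and 2, KRT8 and TFAP2A, lower after MT. Over all genes tested there, 61.6% were called higher and 34.1% lower. CDX2 and TFAP2A reached the level for testing through 1 group only, so their calls were set by that. CDX2, a defining trophectoderm marker, was at 0 in every control library and had 15.0 to 17.2 TPM after MT, the mean of GATA2 was 7.07 TPM in control and 49.1 TPM after MT, and TFAP2A had 31.5 to 38.9 TPM in controls and 0.46 to 0.55 TPM after MT. Inner cell mass markers summed to between 246 and 250.2 TPM in control and between 232 and 237 TPM in MT-treated libraries. Of these, NANOG was at 0 in every control library, POU5F1 lay between 188 and 191 TPM in controls and between 191 and 194 TPM after MT, and SALL4 lay between 55.0 and 57.9 TPM in controls and between 26.3 and 27.0 TPM after MT. Of 5 hypoblast markers, 4 were at 0 in every control library and 1 in every MT-treated library, and their summed level lay between 0.20 and 0.44 TPM in control and between 61.2 and 69.6 TPM in MT-treated libraries. Summed cumulus and granulosa cell markers lay between 17.2 and 19.3 TPM in control and between 15.1 and 17.1 TPM in MT-treated libraries, nearly all of it from FSHR, while 5 of the 9 markers found, among them INHA, HAS2 and PTX3, were at 0 in all libraries. Oocyte markers summed to between 45.6 and 49.3 TPM in control and between 36.7 and 39.0 TPM in MT-treated libraries. OOEP made up the whole control sum and had 20.5 to 22.5 TPM after MT, while BTG4 was at 0 in controls and had 15.0 to 15.5 TPM after MT. Of 5 sperm markers, TNP1 alone was above 0, with 59.6 to 65.0 TPM in controls and 0 throughout the MT-treated group. Blood markers summed to between 32.8 and 35.1 TPM in control and between 161 and 180.4 TPM in MT-treated libraries. The part of these differences in the results on the mtDNA genes was not tested.

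In control blastocysts 5 of the 9 genes were above 0, in the order SSBP1, TFB1M, TFAM, TFB2M and POLG. TFB1M and TFAM overlapped in their values, and the other neighbours in that order were separate. In MT-treated blastocysts all 9 were above 0, in the order SSBP1, MPV17, TFAM, TFB2M, POLG2, TFB1M, POLG, TWNK and POLRMT, and the values of each neighbouring pair were separate. Differences between the groups were tested on log2(TPM + 1) with limma, which pools information on the spread over genes. The fit covered the 11953 genes with at least 1 TPM in at least 3 libraries, and all 9 genes entered it. POLRMT, POLG2, TWNK and MPV17 entered it only through the MT-treated libraries, so a difference in them was set by that entry and no p-value is given for it. No error was given to the zeros, because a gene can be listed at 0 when its transcript was absent or when it was not captured or counted.

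**Figure D1:**
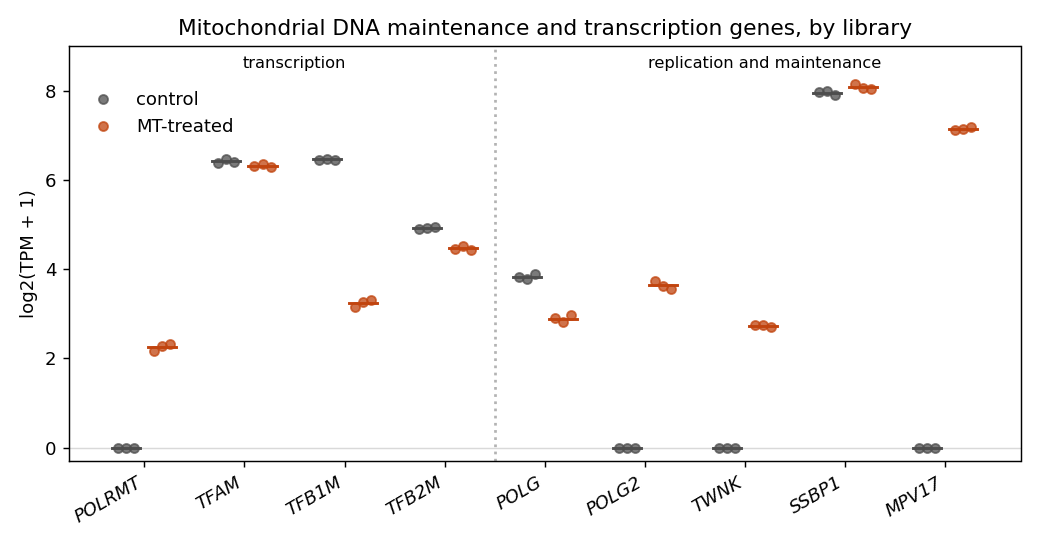
Level of each gene in each library as log2(TPM + 1), with control libraries in grey, MT-treated libraries in orange and a bar at the mean of each group. POLRMT, POLG2, TWNK and MPV17 lie at 0 in all control libraries, TFB1M drops furthest among the genes seen in both groups, and SSBP1 and TFAM stay close to their control level.

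Among the genes of transcription, POLRMT (ENSBTAG00000015051) was listed at 0 in all controls and reached 3.48, 3.83 and 4.03 TPM after MT. It was the lowest of the 9 genes in MT-treated blastocysts, above 27.7% of the genes detected there.

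TFAM (ENSBTAG00000003546), the packaging factor of mtDNA, had 82.5, 87.2 and 82.9 TPM in controls and 78.3, 80.5 and 76.8 TPM after MT. Each value after MT was below each control value, but the means of 84.2 ± 2.59 and 78.5 ± 1.85 TPM (SD, n = 3 each) differed only 1.07-fold. The log2 difference was -0.10 (standard error 0.03, adjusted p = 0.021 by limma), and 6.04% of the 6925 tested genes above 0 in all libraries had a smaller one in size. Its direction depended on the scaling, since the log2 difference was 0.38 after median centring, 0.17 after quantile normalization and 0.02 after rescaling to the genes above 0 in all libraries. The call was also lost without control replicate 2 (adjusted p = 0.0524 by limma), without MT-treated replicate 1 (adjusted p = 0.0595) and without MT-treated replicate 3 (adjusted p = 0.0656).

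TFB1M (ENSBTAG00000031895), the ribosomal RNA methyltransferase, had 86.1, 87.9 and 86.4 TPM in controls and 7.86, 8.56 and 8.95 TPM after MT. The groups were far apart, and the mean fell 10.3-fold from 86.8 ± 0.996 to 8.46 ± 0.552 TPM (SD, n = 3 each). The log2 difference was -3.22 (standard error 0.05, adjusted p = 5.60e-09 by limma), and 3.84% of the 6925 tested genes above 0 in all libraries had a lower one. TFB1M went from overlapping with TFAM in the control libraries to a lower level than TFB2M in the MT-treated libraries.

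TFB2M (ENSBTAG00000000072), the initiation factor of the pair, had 29.0, 29.2 and 29.5 TPM in controls and 21.0, 21.8 and 20.5 TPM after MT. All MT-treated values were below all control values, with means of 29.2 ± 0.262 and 21.1 ± 0.661 TPM (SD, n = 3 each). The log2 difference was -0.45 (standard error 0.03, adjusted p = 1.17e-05 by limma), but after median centring it was 0.03 and did not pass the threshold (adjusted p = 0.426 by limma).

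Among the genes of replication, POLG (ENSBTAG00000009098) had 13.0, 12.7 and 13.9 TPM in controls and 6.44, 6.04 and 6.81 TPM after MT. The catalytic subunit was thus lower in each MT-treated library, and its mean fell 2.05-fold from 13.2 ± 0.617 to 6.43 ± 0.385 TPM (SD, n = 3 each). The log2 difference was -0.94 (standard error 0.05, adjusted p = 4.79e-06 by limma). POLG was called lower under each of the 14 alternative settings, with log2 differences between -2.63 after quantile normalization and -0.46 after median centring.

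POLG2 (ENSBTAG00000018420), the accessory subunit of the same enzyme, was listed at 0 in all controls and reached 12.3, 11.3 and 10.8 TPM after MT. In each MT-treated library it stood above POLG. TWNK (ENSBTAG00000003296), the helicase, was listed at 0 in all controls and reached 5.69, 5.70 and 5.52 TPM after MT.

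SSBP1 (ENSBTAG00000010931), the single-strand binding protein, was the most abundant of the set in every library, with 249.7, 253 and 237 TPM in control and 283, 264 and 261 TPM in MT-treated libraries. The groups did not overlap, and the mean rose 1.09-fold from 247 ± 8.43 to 269 ± 11.8 TPM (SD, n = 3 each). The log2 difference was 0.12 (standard error 0.04, adjusted p = 0.0231 by limma), and it did not pass the threshold without control replicate 3 (adjusted p = 0.0663 by limma) or without MT-treated replicate 1 (adjusted p = 0.0542 by limma). The scalings gave larger values in the same direction, up to 0.604 after median centring.

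MPV17 (ENSBTAG00000018269) was the second most abundant of the 9 genes in MT-treated blastocysts, with 138, 141 and 144 TPM, and was listed at 0 in each control library. Its level in MT-treated libraries was above that of 93.2% of the genes detected there. Zeros at such a level were rare in these data. Of the 1215 tested genes within 2-fold of MPV17 in the MT-treated mean, 44 (3.62%) were listed at 0 in every control library. Around the other 3 genes such zeros were common, at 1324 of 2459 genes (53.8%) for POLRMT, 1644 of 3213 (51.2%) for TWNK and 2110 of 4624 (45.6%) for POLG2.

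Among the 5 genes above 0 in all libraries, 4 were lower and 1 was higher after MT (adjusted p under the threshold of 0.05 by limma), where 52.3% of the 6925 such genes tested were lower and 40.6% higher. The median log2 difference of these 5 was -0.45, and that of the 6925 was -0.19. Over all genes tested, 61.6% were called higher and 34.1% lower, so that 95.7% were called in either direction. The groups did not overlap for any of the 9 genes, as for 96.1% of all genes tested. The calls and the separation alone therefore did not set these genes apart. Of the 9 genes, 4 were listed at 0 in every control library and 0 in every MT-treated library, against 33.8% and 3.01% of all genes tested. Counted with these 4, whose calls follow from their entry into the fit, the split was 5 higher and 4 lower, and it became 6 and 2 after median centring, 5 and 3 after quantile normalization and 5 and 3 after rescaling.

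The summed level of the 9 genes was 460.3, 470.1 and 449.9 TPM in controls and 555, 542 and 539 TPM after MT. The means were 460.1 ± 10.1 and 545 ± 8.75 TPM (SD, n = 3 each), and the 4 genes at 0 in control supplied all of the excess. MPV17 supplied 25.8 ± 1.02% of the MT-treated sum (SD, n = 3). In TPM as deposited, the sum over the 5 genes above 0 in all libraries was instead lower, at 384 ± 11.4 TPM against 460.1 ± 10.1 TPM in control (SD, n = 3 each, exact permutation test, two-sided, p = 0.1, the lowest that this design can give). This sum was not recomputed under other scalings. After median centring SSBP1, TFAM and TFB2M had log2 differences of 0.604, 0.38 and 0.03, and TFB1M and POLG of -2.74 and -0.46. The direction of this sum is therefore not settled.

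**Figure D2:**
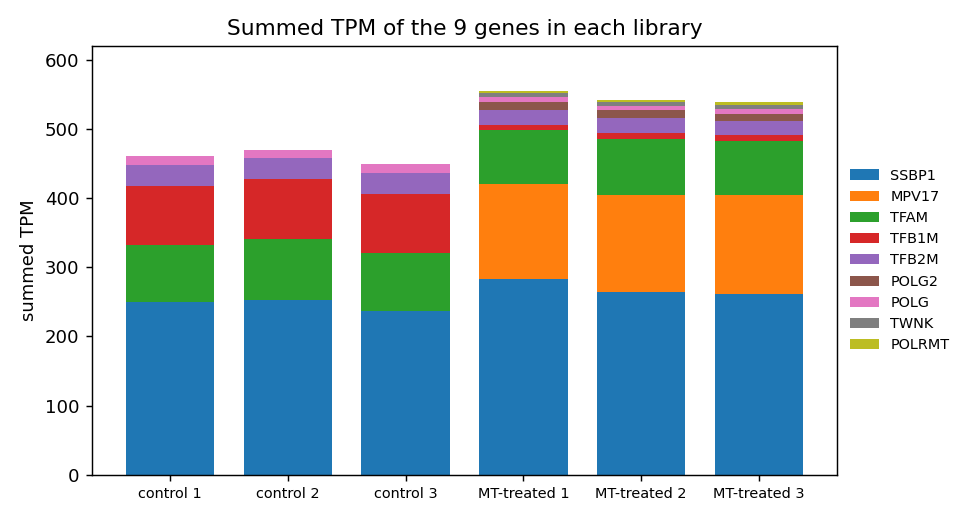
Summed TPM of the 9 genes in each library, with 1 segment per gene. The MT-treated bars are taller, with the MPV17 segment present in these alone, while the TFB1M segment shrinks from about the size of TFAM to a thin band.

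A plain ratio of TPM within a library does not change when that library is multiplied by a constant. TFB2M stood at 0.337, 0.332 and 0.342 of TFB1M in the control libraries and at 2.67, 2.55 and 2.29 times TFB1M in the MT-treated libraries. The order of the paralogues was thus reversed in every library, with a difference in log2((TFB2M + 1)/(TFB1M + 1)) of 2.77 between the groups (exact permutation test, two-sided, p = 0.1). With quantile normalization, which gives each library the same distribution, it was 4.21. Of the summed TPM of the 5 genes above 0 in all libraries, SSBP1 took 53.6 ± 0.795% in control and 70.1 ± 1.07% in MT-treated blastocysts (SD, n = 3 each). TFB1M took 18.9 ± 0.295% in control and 2.21 ± 0.208% in MT-treated blastocysts, and TFAM took 18.3 ± 0.328% and 20.5 ± 0.691% (SD, n = 3 each). The direction for SSBP1 and TFAM depended on the genes summed. Over all 9 genes the control shares were the same. After MT, SSBP1 then took 49.3 ± 1.37% and TFAM 14.4 ± 0.389%, both lower than in control (SD, n = 3 each). The groups did not overlap for any of these shares (exact permutation test, two-sided, p = 0.1 each). In the MT-treated libraries POLG2 had 1.91, 1.86 and 1.59 times the TPM of POLG, TFAM had 22.5, 21.0 and 19.1 times that of POLRMT, and SSBP1 had 49.7, 46.3 and 47.2 times that of TWNK. The corresponding control ratios are not given, since POLG2, POLRMT and TWNK were at 0 there.

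**Figure D3:**
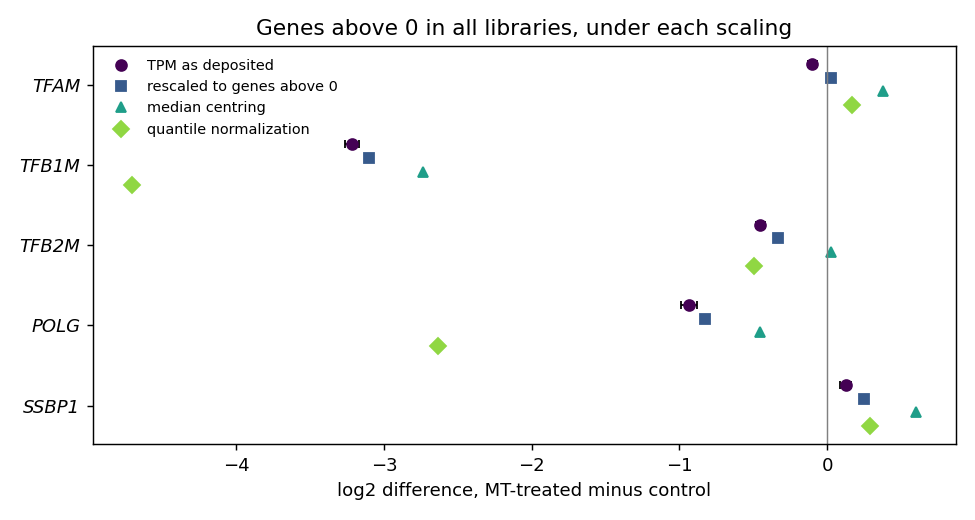
Log2 difference between MT-treated and control blastocysts for the 5 genes above 0 in all libraries, under 4 scalings, with the standard error of the limma fit for the TPM as deposited. TFB1M and POLG stay below 0 and SSBP1 above 0 under each scaling, whereas TFAM and TFB2M cross 0, TFAM under 3 of them and TFB2M after median centring.

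Other genes of the same processes were collected by name into 3 lists, of which 3, 3 and 1 found genes did not reach the level for testing. Among 18 tested genes of mtDNA replication, repair and nucleotide supply, 13 were above 0 in all libraries, and by limma 2 of these were higher and 11 lower after MT, beside 40.6% and 52.3% of the 6925 such genes. Their median log2 difference was -1.63, against -0.19 over the 6925. Counted with the genes at 0 throughout a group, 6 were higher and 12 lower (33.3% and 66.7%, beside 61.6% and 34.1% of all genes tested), and 4 of the 6 were at 0 in every control library. EXOG, a mitochondrial nuclease, fell from 80.3 ± 1.45 to 1.28 ± 0.0700 TPM (SD, n = 3 each, adjusted p = 5.84e-10 by limma). TOP3A, a topoisomerase that separates daughter mtDNA molecules, had 18.3 ± 0.0808 TPM in controls and 0.727 ± 0.0416 TPM after MT (SD, n = 3 each), and it was 1 of the 13 that entered the fit through the control libraries only, so its p-value is not given. ABAT, listed at 0 throughout the MT-treated group, had a mean of 8.26 ± 1.61 TPM in controls (SD, n = 3). RRM2B, a subunit of the ribonucleotide reductase of resting cells, was listed at 0 in all controls and reached 26.7, 27.0 and 27.8 TPM after MT. DNA2, a nuclease and helicase, was also at 0 in control and reached 18.0, 16.2 and 14.4 TPM after MT.

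Among 20 tested genes of mitochondrial transcription and RNA processing, 14 were above 0 in all libraries, of which 6 were higher and 7 lower, with a median log2 difference of -0.20 against -0.19 over all such genes. The calls of 2 of these 14, FASTKD5 and GRSF1, were set by entry through 1 group only. Counted over the 20, 12 were higher and 7 lower (60.0% and 35.0%, beside 61.6% and 34.1% of all genes tested), and 4 of the 12 were at 0 in every control library. PNPT1, a subunit of the mitochondrial RNA degrading complex, had 0, 0.02 and 0 TPM in controls and 15.0, 16.0 and 15.3 TPM after MT. FASTK was listed at 0 in all controls and reached 14.0, 12.5 and 14.2 TPM after MT, and its relative FASTKD1 was likewise at 0 in all controls and reached 4.72, 5.25 and 4.55 TPM. The relatives FASTKD2 and FASTKD5 were lower, while FASTKD3 was at 0 in all libraries and was not tested. FASTKD2 fell from 64.3 ± 2.07 to 9.94 ± 0.0577 TPM (SD, n = 3 each, adjusted p = 2.73e-09 by limma). FASTKD5, which entered the fit through the control libraries only, had 26.4 ± 0.0808 TPM there and 0.673 ± 0.0666 TPM after MT (SD, n = 3 each). After median centring 4 genes of this list were lower in place of 7, and with quantile normalization 10 were higher and 9 lower.

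Among 11 tested nuclear regulators of mitochondrial gene expression, 7 were above 0 in all libraries, of which 4 were higher and 3 lower, with a median log2 difference of 0.47 against -0.19 over all such genes. The calls of 2 of these 7, PPARGC1B and ESRRA, were set by entry through 1 group only. Counted over the 11, 8 were higher and 3 lower (72.7% and 27.3%, beside 61.6% and 34.1% of all genes tested), and 4 of the 8 were at 0 in every control library. GABPA, the DNA-binding subunit of the factor also called NRF2 in mitochondrial work, was listed at 0 in all controls and reached 12.1, 10.6 and 12.1 TPM after MT, while its partner GABPB1 fell from 42.8 ± 1.22 to 5.32 ± 0.635 TPM (SD, n = 3 each, adjusted p = 1.08e-07 by limma). CREB1, a cyclic AMP responsive factor, was at 0 in control and reached 9.35, 9.06 and 9.55 TPM after MT. PPARGC1B, a coactivator of mitochondrial biogenesis, had 18.5 ± 0.308 TPM in controls and 0.757 ± 0.0473 TPM after MT (SD, n = 3 each). With quantile normalization 4 genes of this list were higher and 5 lower, so its majority direction depended on the scaling.

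**Figure D4:**
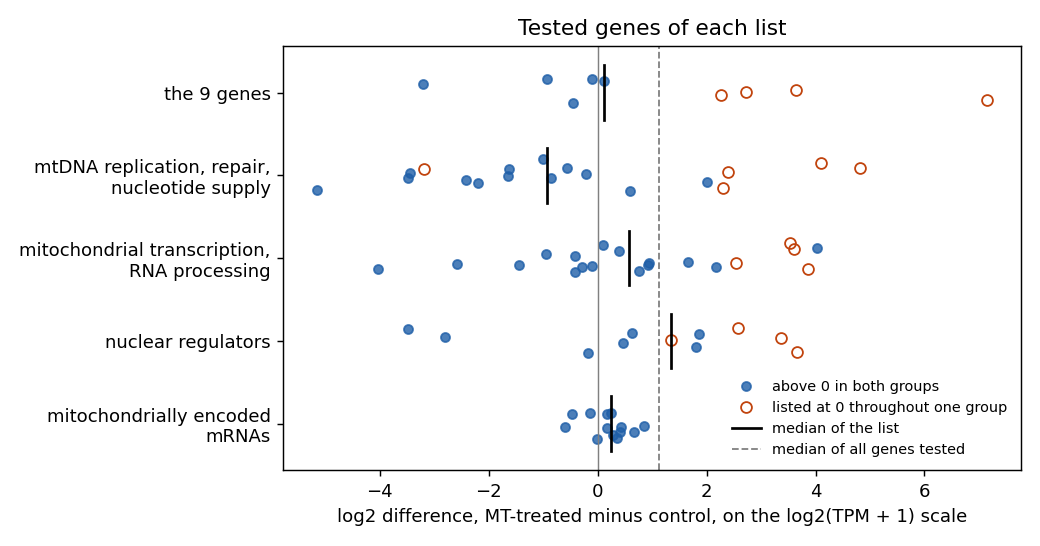
Log2 difference between MT-treated and control blastocysts for each tested gene of the 9 and of the lists, with a black bar at the median of each list and a dashed line at the median of all genes tested (1.12). Open circles are genes listed at 0 throughout a group, whose position depends on the pseudocount of 1, and the mitochondrially encoded messenger RNAs span the narrowest range.

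The 13 messenger RNAs encoded by mtDNA itself are the products of this transcription machinery. Their summed level was 74581, 76141 and 73856 TPM in controls and 82233, 83709 and 81257 TPM after MT, a ratio of the means of 1.10 (exact permutation test, two-sided, p = 0.1). The difference in this sum was 7540.01 TPM as deposited and 14337 TPM after rescaling to the genes above 0 in all libraries. Of these, 9 were higher and 3 lower by limma (69.2% and 23.1%, beside 40.6% and 52.3% of the tested genes above 0 in all libraries), and each log2 difference was smaller than 1 in size. ND5 and ND4 of complex I rose most, from 662 ± 4.81 to 1189 ± 13.9 TPM and from 2999 ± 48.5 to 4765 ± 75.7 TPM, and ATP8 and CYTB fell most, from 3057 ± 69.1 to 2025 ± 104 TPM and from 3926 ± 104 to 2815 ± 65.1 TPM (SD, n = 3 each, adjusted p between 5.78e-09 and 9.79e-06 by limma). ATP8 overlaps ATP6 and ND4L overlaps ND4 in the mitochondrial genome, so reads between them could be assigned to either. After median centring 11 of the 13 were higher in place of 9, and 1 was lower in place of 3. The log2 differences of ND5 and ND4 were then 1.32 and 1.15, above 1 in size. That of ATP8 was -0.12 (adjusted p = 0.0379 by limma), and CYTB was no longer called (adjusted p = 0.985 by limma).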

How the data were processed

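RNA-seq of bovine blastocysts comprised 6 libraries. According to the study's methods and the submitters' processing notes, reads were checked with fastp and FastQC 0.11.9, aligned with STAR 2.7.9a and counted per gene with featureCounts (Subread 1.6.3), and DESeq2 was used for the authors' own tests. The methods name the assembly ARS-UCD1.3 and the labels ARS-UCD1.2, and the methods name Smart-seq2 but the labels TruSeq, so the library chemistry is uncertain. Whether strand was used in counting is not given in the sources used here. The authors deposited TPM per gene, rounded to 2 decimals. TPM keeps no counts, and the study's own table of sequencing depth was not used here, so no counting interval was computed.

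The sample labels gave the group and number of each library. The MT concentration, maturation time and pool size came from the study's methods, which also state that the libraries of a group came from separate production runs. Values were transformed to log2(TPM + 1), so a fold change on that scale understates the change of low genes. Genes reaching 1 TPM in 3 or more libraries entered a linear model in limma 3.58.1 (R 4.3.3), moderated by eBayes with a trend on mean level, with Benjamini-Hochberg adjustment over all genes tested at a threshold of 0.05. For sums and ratios within libraries, exact permutation tests, two-sided, were run with scipy 1.17.1. The fit was also run on simulated data in which few genes differed between the groups. In these data 95.7% of the tested genes were called, so that run does not measure the error of the calls given here.

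The 9 genes, the other lists and the markers were chosen with earlier results of these data known, and the lists were written from general knowledge. From each list the 2 highest and 2 lowest log2 differences among called genes with separate groups were named. FASTKD1, FASTKD3, GRSF1, ESRRA, ABAT, the single marker genes, shares of the summed TPM and neighbouring genes were added after the values were seen. The RefSeq gene table held all 10 symbols, but its assembly differs from that of the files, so no coordinates are given, and no sequences were used here. The alternatives were quantile normalization, a pseudocount of 0.1, a filter at 5 TPM or none, centring on the median of genes with at least 1 TPM in all libraries, rescaling to genes above 0 in all libraries, eBayes without the trend, a replicate block and each library left out in turn.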

Additional observations from a re-analysis of the deposited data

How the results depend on the processing

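TFB1M and POLG kept their direction and their call under each of the 14 alternative settings. For POLRMT, POLG2, TWNK and MPV17, at 0 in every control library, the fitted log2 difference depended on the setting, from 0.016 to 5.28, 1.04 to 6.85, 0.253 to 5.84 and 6.16 to 10.5. Median centring removed a shift of -0.48 between the groups on the log2 scale, and rescaling removed a shift of -0.12. After median centring 2 of the 9 genes were lower in place of 4, 4 genes of mitochondrial transcription and RNA processing were lower in place of 7, and 1 mitochondrially encoded messenger RNA was lower in place of 3. TFAM then had a log2 difference of 0.38 and TFB2M of 0.028. TFAM also turned to 0.168 with quantile normalization and to 0.0236 after rescaling. With quantile normalization 4 nuclear regulators were higher and 5 lower, in place of 8 and 3, and with a minimum TPM of 5 there were 5 higher, because fewer genes were tested. POLRMT was not tested at that minimum. After rescaling, the difference in the summed TPM was 129 for the 9 genes, in place of 85.2, and 14337 for the mitochondrially encoded messenger RNAs, in place of 7540.01. With a pseudocount of 0.1 the difference in the log2 ratio between the groups was 7.88 for POLG2 to POLG, -5.38 for TFAM to POLRMT and -5.72 for SSBP1 to TWNK, which contain zeros, and 2.88 for TFB2M to TFB1M. With quantile normalization, chosen for this ratio after seeing the data, it was 4.21 for TFB2M to TFB1M. The causes were not tested beyond what each setting does by construction.

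With each library left out in turn, the 9 genes gave 4 to 5 higher and 3 to 4 lower calls, of which the calls of those 4 follow from their entry into the fit. Replication, repair and nucleotide supply gave 6 higher and 12 lower, transcription and RNA processing 12 higher and 7 to 8 lower, nuclear regulators 8 higher and 3 lower, and mitochondrially encoded messenger RNAs 8 to 9 higher and 3 lower. The summed TPM differed by 80.1 to 90.3 for the 9 genes and by 6885 to 8181 for the mitochondrially encoded messenger RNAs. The log2 ratios differed by 4.53 to 4.65 for POLG2 to POLG, 2.72 to 2.82 for TFB2M to TFB1M, -2.40 to -2.30 for TFAM to POLRMT and -2.64 to -2.59 for SSBP1 to TWNK. All of these but TFB2M to TFB1M rest on zeros in control and on the pseudocount, so their narrow range is no sign of stability.

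Per the study's methods, treatments ran side by side within each production run, so the groups may share runs, but no source says that equal replicate numbers mark the same run. Deviations from the group mean correlated at 0.0942, -0.000741 and 0.15 for libraries numbered 1, 2 and 3 over 5988 genes. Control replicates 1 and 3 correlated best with the MT-treated library of their own number, and control replicate 2 with MT-treated replicate 1. Such deviations cancel out within each group, so these correlations cannot decide the pairing. The libraries were treated as unpaired because no source states which of them belong together. With the replicate number as a block, 5 of the 9 genes were higher and 4 lower as before.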

Other observations

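Protein-coding genes beside or overlapping the 4 that were at 0 in control were taken from the gene order of the RefSeq table after the values were seen. Of 9 such neighbours with a row, 4 were above 0 in all control libraries and 5 were at 0 in each of them, of which 3 were at 0 in the MT-treated libraries too. MRPL43, a mitochondrial ribosomal protein gene beside TWNK, had 90.2 ± 1.95 TPM in control and 115 ± 6.84 TPM in MT-treated blastocysts, and DDX5, an RNA helicase gene beside POLG2, had 194 ± 4.66 and 131 ± 1.16 TPM (SD, n = 3 each, adjusted p = 0.000426 and 6.14e-07 by limma). BSG beside POLRMT had 961 ± 26.4 TPM in control and 1644 ± 25.3 TPM in MT-treated blastocysts (SD, n = 3 each, adjusted p = 1.55e-07 by limma). HCN2, whose span overlaps that of POLRMT, had 0.49, 0.54 and 0.53 TPM in controls and 0.66, 0.78 and 0.85 TPM after MT. Beside MPV17, GTF3C2 was also listed at 0 in all controls and reached 6.81, 6.31 and 6.62 TPM after MT, and UCN was at 0 in all libraries.

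FANCI, a DNA repair gene whose span overlaps that of POLG, rose from 7.08 ± 0.231 to 17.9 ± 1.61 TPM (SD, n = 3 each, adjusted p = 3.76e-06 by limma), opposite to POLG. Whether strand was used in counting is not given in the sources used here, so both values are uncertain. CNST, which lies next to TFB2M, was listed at 0 in all controls and reached 37.5, 21.0 and 34.0 TPM after MT.

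The genes with a symbol whose 6 values of log2(TPM + 1) lay closest to those of TFAM were RIMKLB, SDF2 and NME6, at Euclidean distances of 0.113, 0.176 and 0.177. All 3 had between 74.5 and 88.0 TPM in every library. The likeness is in level and in the near absence of a difference between the groups.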
